A study of Caenorhabditis elegans and Caenorhabditis briggsae with 26 samples.

Results

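A mixed-stage reference of the nematode Caenorhabditis elegans was compared with libraries of animals collected at single developmental stages. The comparison took 13 of the 26 libraries of the series, namely 2 reference libraries and the 11 staged C. elegans libraries. For each gene the lower reference value was set against the highest staged value, and the higher reference value against the lowest staged value. A gene was "above the staged range" where both reference libraries exceeded all 11 staged libraries, and "below the staged range" where both were lower than all 11.

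The study sequenced poly(A)-selected RNA of C. elegans and of its relative Caenorhabditis briggsae across development. All C. elegans libraries came from the wild-type strain N2 grown at 20 °C, and staged animals were fed E. coli strain AT713 in liquid medium after hatching without food. Mixed embryos (E) were isolated with bleach. Larvae were collected 7 h (L1), 20 h (L2), 29 h (L3), 41 h (early L4, labelled L4) and 52 h (late L4, LL4) after feeding began, and young adults (YA), which the labels call pre-gravid, at 57 h. Embryos and L1 larvae had 3 libraries each, A1 and A2 from the first time course and B from the second. L2, L3, L4, LL4 and YA had 1 library each, all from the first time course. The reference libraries, A1 and A2, are replicates of a single sample that the design text describes as a mixture of all stages. The labels do not give its proportions, or whether its animals were grown apart from the staged ones. The values are RPKM, a read density scaled by gene length and sequencing depth, as deposited by the authors.

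Between hatching and adulthood C. elegans builds a new collagen cuticle at each molt, and most cuticle collagen genes are switched on in short pulses around a molt. Larvae that meet crowding or hunger can enter an alternative larval stage, the dauer, whose cuticle has its own collagens and cuticlins. The intestine and epidermis secrete lysozymes, lectins and short antimicrobial peptides, many of them induced by microbes or by damage. Adult hermaphrodites make yolk in the intestine and eggs in a gonad wrapped by contractile sheath cells. A mixture of the sampled stages would, before error and scaling, lie between the lowest and the highest of them for every gene, and the comparison asks which genes lay outside.

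The reference libraries resembled each other more than any stage. Over the 15480 genes with at least 1 RPKM in either library their Spearman correlation was 0.972, and 8.13% differed by over 2-fold. The median log2 difference of A1 minus A2 was -0.31, so A2 was the higher at the median gene. Among the staged libraries the young adult library was the most like both, with correlations of 0.89 for A1 and 0.877 for A2. As weighted sums of the 7 stage profiles (non-negative least squares, an estimate and not a test), A1 and A2 took 55.6% and 50.8% of their weight from young adults, 17.6% and 20.6% from L2, 8.39% and 9.08% from embryos, and none from L1. Plain least squares gave other weights, such as 43.5% of A2 from young adults, 16.8% of A2 from embryos and 14.2% of A1 from L4, which held 1.64% of A1 in the first fit. Genes with at least 20 RPKM in 1 stage and at least 4 times the level of every other stage were also counted. The 364 of young adults stood at a median of 47.7% and 46.4% of their young adult level, and the 466 of embryos at 7.22% and 9.95% of their embryo level. The 17 of L1 stood at 14.6% and 24.2% of their L1 level, although the fit gave L1 no weight. Within the first fit, 9.26% of genes in A1 and 14.2% in A2 were over 2-fold away from the weighted sum.

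Some libraries need naming before the gene results. The RPKM step that low genes share, which falls as more reads are sequenced, was 1.14 times the young adult step in reference A1 and 0.909 times in A2, against 2.73 to 3.97 times in all L1 libraries and the embryo libraries other than A1, so the reference was among the more deeply sequenced. Values far under 1 RPKM lie on or near these steps, and ratios to them are imprecise. The L2 library held RNA of adult genes: the yolk gene vit-2 stood at 209 RPKM in it, against 3114 RPKM in young adults, 33 RPKM in L3 and at most 1.41 RPKM in embryos and L1, and the adult collagen col-19 at 18.6 RPKM in L2, against 1.71 RPKM in L3. L2 was the highest staged library for 7.13% of all genes tested but for 39 of the 145 genes (26.9%) at least 2-fold above the range, and results are given below with and without it. Results without L2 compare the reference with the remaining stages only. In bulk RNA, fewer cells or animals of a kind and less RNA in each cannot be told apart.

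Both reference libraries exceeded all 11 staged libraries for 990 of 17374 genes tested (5.7%) and were lower than all 11 for 232 (1.34%). The difference was at least 2-fold on the log2(RPKM + 1) scale for 145 genes above (0.835%) and 5 below (0.0288%: sqrd-1, cysl-2, egl-9, let-2 and ZC449.5), at least 4-fold for 44 above (0.253%) and sqrd-1 alone, 1 gene, below (0.00576%), and at least 8-fold for 11 above (0.0633%) and 0 below (0%). The split between the directions depended on the scaling of the libraries: quantile normalization, which lowered the median gene of the reference against the stages by 0.30 on the log2 scale, gave 698 above and 1592 below, and median-ratio scaling, which lowered it by 0.21, gave 462 and 621. At least 2-fold outside the range, more genes were above than below under each scaling, with 97 above and 13 below after median-ratio scaling. Barely above the range stood gly-20, with a lower reference value of 54.8017 RPKM against a highest staged value of 54.8008 RPKM. Barely within it stood rpb-3, with 96.2085 against 96.2441 RPKM.

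**Figure D1:**
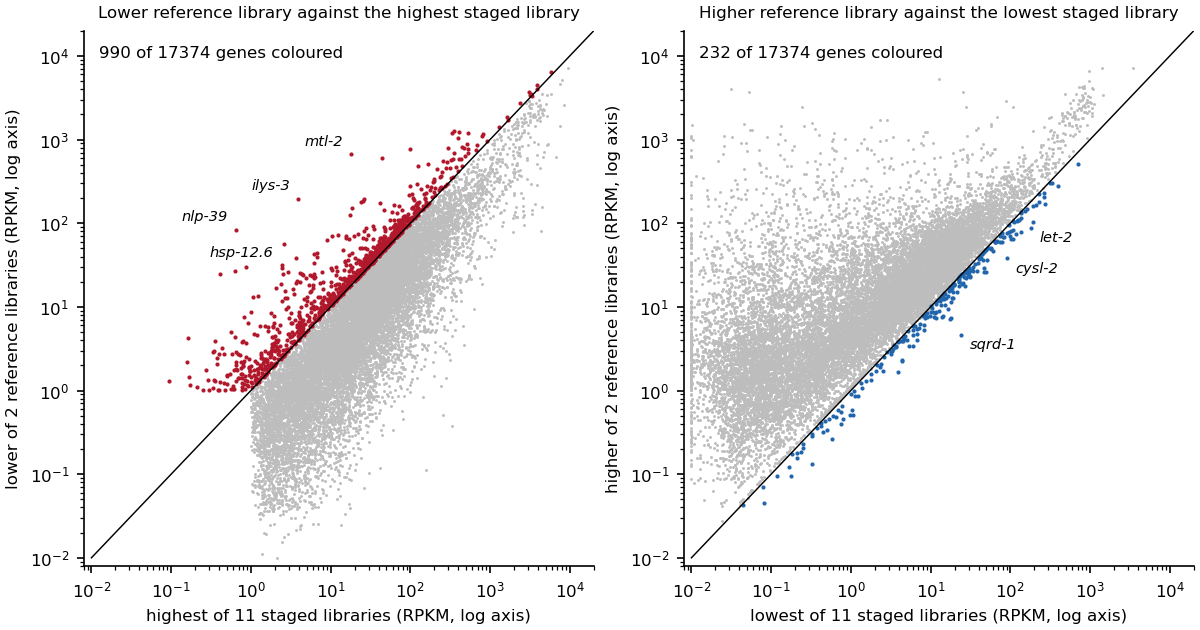
Each point is 1 of 17374 genes, with RPKM on log axes (values under 0.01 drawn at 0.01). Left, the lower reference library against the highest staged library, with the 990 genes above the staged range in red; right, the higher reference library against the lowest staged library, with the 232 genes below it in blue. The farthest genes above, nlp-39, ilys-3 and mtl-2, lie further from the diagonal than sqrd-1, the farthest below among the labelled genes.

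A gene was called where limma found the reference different from each of the 7 stages in the same direction, with the largest of the 7 p-values passing Benjamini-Hochberg adjustment at 0.05 over all genes (libraries of a culture averaged, 10 samples). By this rule 31 genes (0.178%) were called above every stage and 0 (0%) below. At an unadjusted p under 0.05 the counts were 349 above (2.01%) and 26 below (0.15%). The reference is 1 sample per the labels, as are 5 of the stages, and each is assumed to vary as the embryo and L1 cultures do. With the time course (A or B) as a block 5 genes remained called, ilys-2, ilys-3, nlp-39, C54C8.12 and D1086.9. All of these except ilys-3 had no staged library at 1 RPKM and passed the filter on low values through the reference alone. On the log2(RPKM + 1) scale such staged values differ little, so their spread is understated. Leaving out reference library A2 left 1 called gene (ilys-3) and leaving out A1 left 16, of which 12 were among the 31. Of the staged libraries, the count was 0 without embryo B, 5 without embryo A2, 12 without L1 A1, 73 without L1 A2 and 87 without L2, and it was 0 without embryo A1 and A2 together and 51 without L1 A1 and A2 together.

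The largest difference was in nlp-39 (C54C8.9; chromosome I, 12461656 to 12461895, plus strand, WBcel235), which encodes a predicted neuropeptide-like peptide precursor. It stood at 83.6 and 132 RPKM in the reference and at 0.0987, 0.188 and 0.659 RPKM as the lowest, median and highest of the staged libraries, so no staged library reached 1 RPKM. The lower reference value was 127 times the highest staged value, and limma gave a log2 difference of 6.12 ± 0.18 (SE) to L1, the nearest stage, with an adjusted p of 0.00399. The unnamed genes C54C8.12, on the same chromosome, and D1086.9 had lower reference values of 26.6 and 24.7 RPKM against highest staged values of 0.635 and 0.408 RPKM.

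Secreted proteins that act on bacteria formed the next group. ilys-3, an invertebrate-type lysozyme that breaks down bacterial cell walls in the gut (chromosome IV, 2464456 to 2465443), stood at 237 and 196 RPKM in the reference and at 0.0228, 0.579 and 3.95 RPKM (lowest, median, highest) in the stages. Its lower reference value was 49.7 times the L2 value, the highest staged one, with a log2 difference of 5.45 ± 0.30 (limma, adjusted p = 0.0126). The neighbouring ilys-2 (chromosome IV, 2467678 to 2468879) had 33.5 and 30.1 RPKM against at most 0.857 RPKM, with a log2 difference of 4.14 ± 0.21 (limma, adjusted p = 0.00849). All staged values of both genes lay far under the reference. ilys-3 was called under 18 of 20 alternatives. No staged library reached 1 RPKM of ilys-2 or of nlp-39, so both passed the filter on low values through the reference alone.

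The thaumatin-family genes thn-1 and thn-2 lie next to each other on chromosome IV (12380084 to 12380900 and 12383170 to 12383974), and thn-2 is known to act in defence against Pseudomonas. thn-2 reached 833 and 600 RPKM in the reference, against 0.026, 8.01 and 43.7 RPKM (lowest, median, highest) in the stages. Its staged values already differed widely, from under 1 RPKM in all 3 embryo libraries to 43.7 RPKM in young adults, and the lower reference value was 13.8 times the latter (log2 difference 3.99 ± 0.38, limma adjusted p = 0.0439). thn-1 stood at 68.8 and 57 RPKM against at most 2.62 RPKM, with an adjusted p of 0.0203 from limma. How the authors' counting treated reads that match several genes is not given in the sources used here, and how alike the members of the ilys and thn pairs are in sequence was not tested.

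Of 45 intestinal immune effectors tested, 9 were above the range (20%, against 5.7% of all genes), 4 of them by at least 2-fold and called (the ilys and thn genes), and 0 below. Their median log2 ratio of reference to stage mean was 0.30, against -0.11 over all genes tested, and it changed sign under both scalings, to -0.04 and -0.15. Of 129 C-type lectins, a large family of sugar-binding secreted proteins, 19 were above (14.7%) and 0 below, and 4 were called, against 0.178% of all genes: clec-97, clec-98, clec-101 and clec-190. With the culture as a block 0 of the lectins and 2 of the intestinal effectors were called. Of the 129, 5 had passed the filter through the reference alone. clec-97 had 18.9 and 20.1 RPKM in the reference and at most 2.39 RPKM in the stages (limma adjusted p = 0.0304), and clec-190 had 12.8 and 25.5 RPKM against at most 2.69 RPKM (limma adjusted p = 0.0355). clec-97 and clec-98 overlap on opposite strands of chromosome I, and whether counting used strand is not given in the sources used here. With quantile normalization 5 of the lectins were below the range and 13 above.

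Among 19 epidermal antimicrobial peptide genes, 6 were above the range (31.6%, against 5.7% of all genes), 4 by at least 2-fold, and 0 below. cnc-6, a caenacin, was called: it had 28.8 and 40.6 RPKM in the reference and 0.0966, 0.566 and 2.47 RPKM (lowest, median, highest) in the stages (log2 difference 3.38 ± 0.28, limma adjusted p = 0.0355). L1 was the highest stage for cnc-6, whereas cnc-2 had its highest staged value in L3. cnc-2 reached 87.5 and 133 RPKM against 28 RPKM there, and cnc-7 20.4 and 26 RPKM against 3.81 RPKM, with adjusted p-values of 0.164 and 0.0586 from limma. nlp-27, with 450 and 512 RPKM, was 2.11 times its highest stage, but nlp-29, the best known infection-induced peptide gene of the epidermis, lay inside the range with 296 and 320 RPKM against 528 RPKM in L3.

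Stress genes lay on both sides of the range. hsp-12.6, a small heat shock protein known as a target of the insulin-pathway factor DAF-16 and abundant in dauer and arrested larvae, stood at 31.5 and 72.7 RPKM in the reference against 0.287, 0.63 and 2.46 RPKM (lowest, median, highest) in the stages (log2 difference 3.82 ± 0.32, limma adjusted p = 0.0355). Over 24 heat shock genes tested, 3 were above the range (hsp-12.3, hsp-12.6 and hsp-43) and 1 below (hsp-12.2). These shares were 12.5% and 4.17%, against 5.7% and 1.34% of all genes. Of the 24 heat shock genes, 4 were at least 2-fold over the stage mean in the reference and 12 at least 2-fold under it. mtl-2, an intestinal metallothionein that binds metals, had 673 and 741 RPKM in the reference. The staged libraries held 0.184, 1.11 and 18.2 RPKM of it as lowest, median and highest, and the L1 cultures differed, with 8.31 and 1.11 RPKM in A1 and A2 and 17.2 RPKM in B. With that spread its log2 difference of 5.20 ± 0.91 gave an adjusted p of 0.251 (limma), and it was not called.

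Some genes of fasting and of fat use were also among those farthest above, without a call. The lysosomal lipase lipl-3, known to be induced by fasting, had 66.7 and 71.4 RPKM against at most 15.6 RPKM, which was in L1. The fatty acyl-CoA synthetase acs-2, another fasting gene, had 257 and 217 RPKM against at most 96.3 RPKM. cpt-3, a carnitine palmitoyltransferase of fatty acid import into mitochondria, had 13.6 and 14.1 RPKM against at most 1.22 RPKM (limma adjusted p = 0.0612). Of 25 fasting and glyoxylate genes tested, 5 were above (acs-2, lipl-3, lipl-5, cpt-3 and acdh-1) and 2 below (pck-1, of gluconeogenesis, and aco-1, an aconitase). These shares were 20% and 8%, against 5.7% and 1.34% of all genes. The median log2 ratio of reference to stage mean of the list was -0.02. In it 7 genes were at least 2-fold over the stage mean and 6 at least 2-fold under it.

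**Figure D2:**
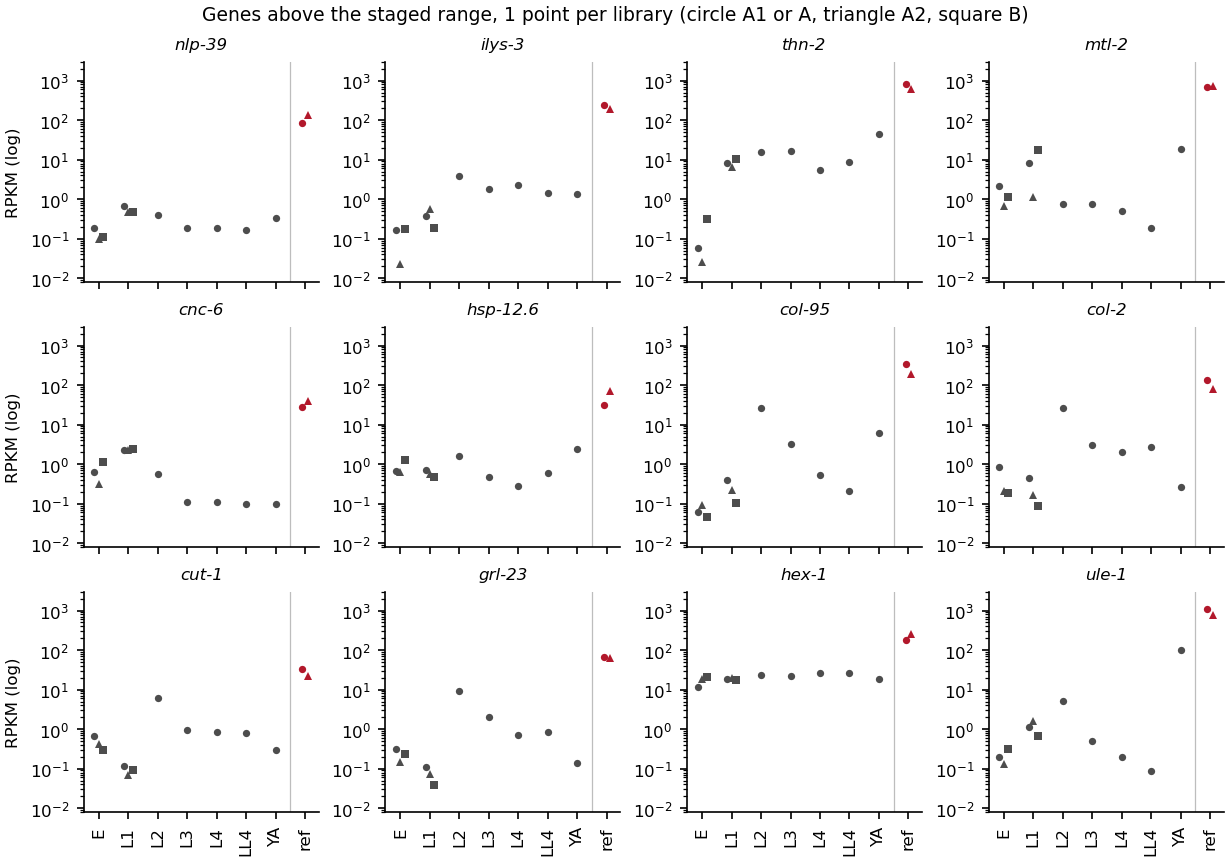
RPKM (log axis) of 12 genes above the staged range in each of the 13 libraries: stages in grey from embryo (E) to young adult (YA), the 2 reference libraries in red. In each panel both reference points lie above every staged point, from nlp-39 with at most 0.659 RPKM in a stage to ule-1 with 98.6 RPKM in young adults.

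Many cuticle collagens were above the range. Of 165 tested, 34 were above (20.6%, against 5.7% of all genes), 23 by at least 2-fold, and 0 below, and 6 were called: col-60, col-95, col-102, col-116, col-120 and col-164. The number called was 0 with the culture as a block, with a pseudocount of 0.5, and without reference A2, embryo A2 or embryo B, 1 without reference A1 or L1 A1, 15 without L1 A2 and 21 without L2. Their median log2 ratio of reference to stage mean was 0.35, and 0.20 and 0.00 after quantile and median-ratio scaling, with 27 and 29 above the range. Of the 165, 3 had passed the filter through the reference alone. Not all members were high: col-19 had 618 and 414 RPKM against 1950 RPKM in young adults, and rol-6 had 84.2 and 60.3 RPKM against 946 RPKM in L3.

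col-95 had the highest level of the called collagens, with 333 and 193 RPKM in the reference and 0.0464, 0.219 and 26.6 RPKM (lowest, median, highest) in the stages (log2 difference 3.20 ± 0.30, limma adjusted p = 0.0412). Its highest value was in L2, and young adults followed with 6.17 RPKM. col-102 also had its highest staged value in L2, with 5.59 RPKM against 51.2 and 24.2 RPKM in the reference (limma adjusted p = 0.0355). col-120 peaked late instead, with 3.67 RPKM in young adults and 3.39 RPKM in late L4, and had 44.6 and 38.4 RPKM in the reference (limma adjusted p = 0.0269). col-60 was also highest in young adults among the stages (3.37 RPKM), and col-164 in L4 (4.18 RPKM), against 21.9 and 16.54 RPKM and 28.5 and 20.1 RPKM in the reference (limma adjusted p = 0.0448 and 0.047). col-116 is annotated over F17E9.2 on the same strand of chromosome IV, so their shared reads cannot be assigned.

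A collagen and a cuticlin known from the dauer cuticle were above the range but were not called. The cuticlin, cut-1, was the 1 gene above the range among 41 cuticlin and molting genes tested, and 0 were below. Of these 41 genes, 1 was at least 2-fold over the stage mean in the reference and 21 were at least 2-fold under it. col-2, a collagen known from the dauer, stood at 134 and 81.1 RPKM in the reference and at 0.0851, 0.436 and 26 RPKM (lowest, median, highest) in the stages, with L2 highest and all other stages at or under 3.06 RPKM. cut-1, a cuticlin of the dauer alae, had 32.4 and 22 RPKM against 6.23 RPKM in L2 and at most 0.958 RPKM elsewhere. Their log2 differences to L2 were 1.96 ± 0.33 and 1.94 ± 0.25, with adjusted p-values of 0.206 and 0.077 from limma. Without the L2 library both were called, as were col-40, col-45, col-114 and col-183, 6 cuticle genes in all. A call without L2 does not place a gene above L2, which was the highest stage of col-2 and cut-1. All 6 were also called with L2 kept and a pseudocount of 5. Of 25 dauer and arrest genes tested, 3 were above the range (hsp-12.6, col-2 and sod-3) and 0 below. Their median log2 ratio was 0.17 as deposited and -0.13 and -0.17 after quantile and median-ratio scaling.

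The ground-like genes encode small secreted proteins related to Hedgehog. Of 24 tested, 6 were above the range (25%), all by at least 2-fold, and 0 below, while the median log2 ratio of the family was -0.22. grl-23 (chromosome V, 12575191 to 12576897) was called, with 64.9 and 63.6 RPKM in the reference against 0.0383, 0.239 and 9.11 RPKM (lowest, median, highest) in the stages (log2 difference 2.69 ± 0.24, limma adjusted p = 0.0365). grl-20 had 43.7 and 47.7 RPKM against at most 6.68 RPKM, and grl-25 52.7 and 41.6 RPKM against at most 17.2 RPKM. L2 was the highest stage for grl-9, grl-19, grl-20 and grl-23, so a call without L2 does not place these genes above their highest stage. L4 was the highest stage for grl-17 and grl-25. Without L2, grl-9, grl-17, grl-19 and grl-20 were also called, and with the culture as a block 0 of the family were.

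Several genes of the egg-laying adult lay above the young adult library. All 5 uterine lumen genes, a list chosen after values had been seen whose products are secreted into the uterus, were above the range, 1 by at least 2-fold. After median-ratio scaling 3 were above, and without reference A1 4 were above by at least 2-fold. ule-1 had 1067 and 767 RPKM against 98.6 RPKM in young adults and at most 5.09 RPKM elsewhere (log2 difference 3.18 ± 0.36, limma adjusted p = 0.0553), and ule-4 had 689 and 1083 RPKM against 349 RPKM in young adults. Genes used in the gonadal sheath followed: the innexins inx-8 (66.9 and 92.7 RPKM against 43 RPKM) and inx-9 (17.5 and 25 RPKM against 13.2 RPKM), tdc-1 (113 and 122 RPKM against 88.4 RPKM), which makes tyramine, and tbh-1 (167 and 193 RPKM against 62.3 RPKM), which makes octopamine from it. The highest staged library was the young adult one in each case. Median-ratio scaling divides the young adult library by 0.729 and the reference libraries by 0.986 and 1.32, which narrows such margins. After it 0 of the 51 neuronal genes, which include tdc-1, were above the range. Of 27 vulva and gonad genes, 2 were above the range and 2 below as deposited (7.41% each, against 5.7% and 1.34% of all genes). Their median log2 ratio of reference to stage mean was -0.68, and 1 was above after median-ratio scaling. Over the whole comparison young adults held the highest staged value for 453 of the 990 genes above the range (45.8%), against 15.4% of all genes tested.

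Eggshell, yolk and meiosis genes differed in their relation to young adults. Of 17 eggshell genes 3 were above the range: cpg-3, a chondroitin proteoglycan of the eggshell (1022 and 897 RPKM against 510 RPKM), perm-2 (1304 and 860 RPKM against 687 RPKM) and perm-4 (1288 and 741 RPKM against 666 RPKM). None of the 6 yolk genes was above it. vit-2 had 3985 and 2537 RPKM against 3114 RPKM in young adults, and vit-5 1488 and 1104 RPKM against 1388 RPKM, so for both genes the reference libraries lay on either side of the young adult value. The reference was under young adults for vit-1 (258 and 159 RPKM against 647 RPKM), vit-3 (723 and 578 RPKM against 1229 RPKM), vit-4 (370.2 and 275.8 RPKM against 694 RPKM) and vit-6 (3668 and 2034 RPKM against 4042 RPKM). Reads of any near-identical copies among these genes may be split between them. Of 19 meiosis genes 6 were above and 0 below, led by htp-1, a chromosome axis protein, with 89.8 and 115.7 RPKM against 59.8 RPKM. After median-ratio scaling the eggshell list had 0 above and the meiosis list 1. Without reference A1 the meiosis list had 14 above, and without A2 the eggshell list had 5.

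Subunits of the proteasome, which degrades tagged proteins, were often above the range. Of 32 tested, 15 were above (46.9%) and 0 below, all by less than 2-fold, with a median log2 ratio to the stage mean of 0.55. pas-7 had 341 and 384 RPKM against 42.6, 122 and 198 RPKM (lowest, median, highest), pas-2 411 and 469 RPKM against at most 247 RPKM, and pas-5 454 and 540 RPKM against at most 314 RPKM. None was called by limma, and the number above was 12 and 5 after quantile and median-ratio scaling. For comparison, 8 of 60 ribosomal protein genes were above, with a median log2 ratio of 0.06, and 0 after median-ratio scaling.

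Among genes with large margins outside the lists, hex-1, a beta-hexosaminidase, had a flat profile through development. It stood at 11.4, 19.5 and 25.9 RPKM (lowest, median, highest) in the stages and at 183.3 and 259 RPKM in the reference, a log2 difference of 3.03 ± 0.34 (limma adjusted p = 0.0553). dct-8 had 125 and 195 RPKM against at most 17.4 RPKM in L3 (limma adjusted p = 0.0512). Other called genes were vmo-1, named for a vitelline membrane protein, with 25 and 36 RPKM against at most 2.51 RPKM, drd-10 with 13 and 20 RPKM against at most 1.05 RPKM, and the low cyp-33C2, a cytochrome P450, with 3.87 and 4.57 RPKM against at most 0.355 RPKM. Of 153 detoxification genes 19 were above (12.4%, against 5.7% of all genes) and 0 below, and cyp-33C2 was the 1 called, with 3 of the 153 past the filter through the reference alone. Without reference A1, 30 of the detoxification genes were above. Of the 31 called genes, 13 had no staged library at 1 RPKM and passed the filter on low values through the reference alone, as did 29 of the 145.

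The other lists are given as counts, beside 5.7% above and 1.34% below over all genes. Of 30 major sperm protein genes, 15 heterochronic genes, 6 male genes and 17 unfolded protein response genes tested, 0 were above and 0 below. The counts above were 1 of 22 maternal RNA-binding regulators, 1 of 18 germ granule genes, 2 of 38 cell cycle genes, 1 of 36 embryonic transcription factors, 2 of 76 histone genes and 1 of 17 intracellular pathogen response genes, with 0 below in each. Of 29 intestinal genes 5 were above (17.2%), among them the cathepsin B relatives cpr-1 and cpr-6, and 0 below. Of 51 neuronal genes 1 was above (tdc-1) and 2 were below: cat-1 and cat-2, which transport and make dopamine. Of 42 respiratory chain genes 1 was above (asg-1) and 2 below (sdha-1 and gas-1).

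As deposited, fewer genes lay below the range than above it, and their margins were small. After quantile normalization and after median-ratio scaling more genes lay below than above. sqrd-1, a mitochondrial enzyme that oxidizes hydrogen sulfide (chromosome IV, 14219871 to 14224440), was the farthest below. It stood at 3.34 and 4.65 RPKM in the reference and at 24.1, 38.3 and 64.9 RPKM (lowest, median, highest) in the stages, so the lowest staged library was 5.19 times the higher reference library. Its log2 difference to embryos, the nearest stage, was -2.55 ± 0.28 with an adjusted p of 0.0612 (limma). It was called below with a filter at 5 RPKM, with the 13 libraries as separate samples, with the library label as a block, and without L1 A2 or L2, but not with the culture as a block (adjusted p = 0.133, limma).

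sqrd-1 is one of the genes known to depend on HIF-1, the hypoxia-inducible factor. cysl-2, a cysteine synthase relative that handles cyanide and sulfide, had 38.5 and 33.8 RPKM in the reference against 90.9, 177 and 321 RPKM (lowest, median, highest). egl-9, the prolyl hydroxylase that marks HIF-1 for destruction and is itself a HIF-1 target, had 7.35 and 7.32 RPKM against 18, 30.3 and 61.2 RPKM. The reference values of egl-9 were nearly equal, and the lowest stage, young adults, was 2.44 times higher. nhr-57, a nuclear receptor gene often used as a HIF-1 reporter, had 2.24 and 3.39 RPKM against at least 6 RPKM. Of 14 HIF-1 response genes tested, a list chosen after values had been seen, 5 were below the range (35.7%, against 1.34% of all genes), the fifth being cysl-3, and 0 above. Without reference A2 the number below was 8. In the broader list of 18 metal, osmotic and hypoxia genes, 4 were below (cysl-2, cysl-3, egl-9 and nhr-57) and 1 above (mtl-2). phy-2 was inside the range with 15.6 and 18.6 RPKM against a lowest value of 11.7 RPKM, and so was rhy-1, with 9.37 and 11.3 RPKM against 11 RPKM. None was called by limma, with an adjusted p of 1 for cysl-2, egl-9 and nhr-57.

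Basement membrane genes had the largest share below the range. Of 18 tested, again chosen after values had been seen, 12 were below (66.7%), 1 by at least 2-fold, and 0 above, with a median log2 ratio to the stage mean of -1.51. let-2 and emb-9 encode the collagen IV chains. let-2 stood at 88.4 and 51.1 RPKM in the reference against 182, 219 and 398 RPKM (lowest, median, highest), and emb-9 at 79.5 and 45.5 RPKM against 135, 179 and 277 RPKM. The laminin alpha gene epi-1 had 9.39 and 7.01 RPKM against at least 16.54 RPKM, perlecan (unc-52) 26.5 and 12.9 RPKM against at least 38.6 RPKM, hemicentin (him-4) 2.33 and 1.91 RPKM against at least 4.39 RPKM, papilin (mig-6) 70.5 and 43 RPKM against at least 99.5 RPKM, and ost-1, the SPARC homolog, 279.4 and 234.99 RPKM against at least 397 RPKM. Reference A2 was lower than A1 in all 7 of these genes. The fit gave no call: the adjusted p of let-2 was 0.544 and that of emb-9 0.777 (limma). The number below was 12 and 13 after quantile and median-ratio scaling, and 12 when either reference library was left out.

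Muscle genes lay low as well. Of 43 body wall muscle genes 8 were below the range (18.6%) and 0 above, and of 24 pharynx genes 4 were below and 0 above, with median log2 ratios of -0.70 and -0.78. After quantile and median-ratio scaling 12 and 14 of the body wall muscle genes were below, and 13 without reference A1. Titin (ttn-1) had 1.68 and 1.64 RPKM against 3.9, 7.72 and 14.7 RPKM (lowest, median, highest), and the obscurin gene unc-89 had 3.37 and 2.23 RPKM against at least 5.41 RPKM. The pharyngeal myosins myo-1 and myo-2 had 7.78 and 4.95 RPKM, and 7.37 and 3.76 RPKM, against at least 9.71 and 11.5 RPKM, so they lay close under their lowest staged libraries, embryos. The major body wall myosin unc-54 was inside the range with 177 and 115 RPKM against a lowest value of 74.9 RPKM in embryos. pcca-1 and pccb-1, the subunits of the carboxylase in vitamin B12-dependent propionate breakdown, had 103 and 74.6 RPKM against at least 191 RPKM, and 170 and 151 RPKM against at least 269.7 RPKM.

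The other genes with the largest margins below were ncx-2, a sodium-calcium exchanger, with 25.9 and 17.6 RPKM against at least 49.6 RPKM, hrpa-2, with 26.3 and 25.4 RPKM against at least 46.6 RPKM, mxt-1, with 7.69 and 7.61 RPKM against at least 14.3 RPKM, and nit-1, a nitrilase relative, with 4.42 and 7.56 RPKM against at least 13.7 RPKM. None of them was called by limma. Young adults were the lowest stage for 103 of the 232 genes below the range (44.4%), against 30.4% of all genes tested. Barely below the range stood cca-1, with a higher reference value of 2.87 RPKM against a lowest staged value of 2.88 RPKM.

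**Figure D3:**
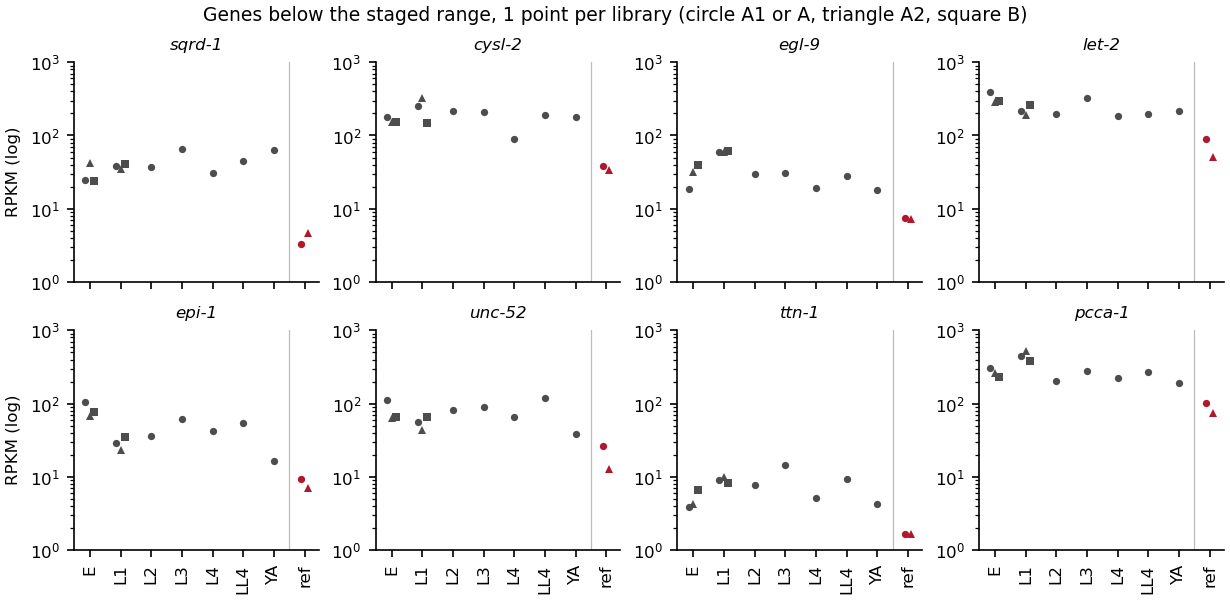
RPKM (log axis, 1 scale for all panels) of 8 genes below the staged range in each of the 13 libraries, with stages in grey and the 2 reference libraries in red. In each panel both reference points lie under every staged point, at 3.34 and 4.65 RPKM for sqrd-1 and at 88.4 and 51.1 RPKM for let-2.

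Gene length differed with the direction. The median exon length was 1312 bases over all genes tested, 1124 for the genes above the range, 801.5 for those at least 2-fold above, and 2231 for those below. Of 1222 genes under 500 bases, 8.59% were above and 0% below. Of 695 genes of at least 4000 bases, 1.58% were above and 6.04% below. The basement membrane list had a median length of 5718.5 bases, the body wall muscle list 1719 and the HIF-1 response list 1397.5. Muscle genes below the range could be far longer, with 56044 bases in ttn-1, 25942 in unc-89, 6457 in myo-1 and 6334 in myo-2. Others below it, dim-1 and tnt-4, had 2483 and 1366 bases. Within the longest class the share below was 6.04%, against 66.7% of the basement membrane list. The part of length in these results was not tested.

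**Figure D4:**
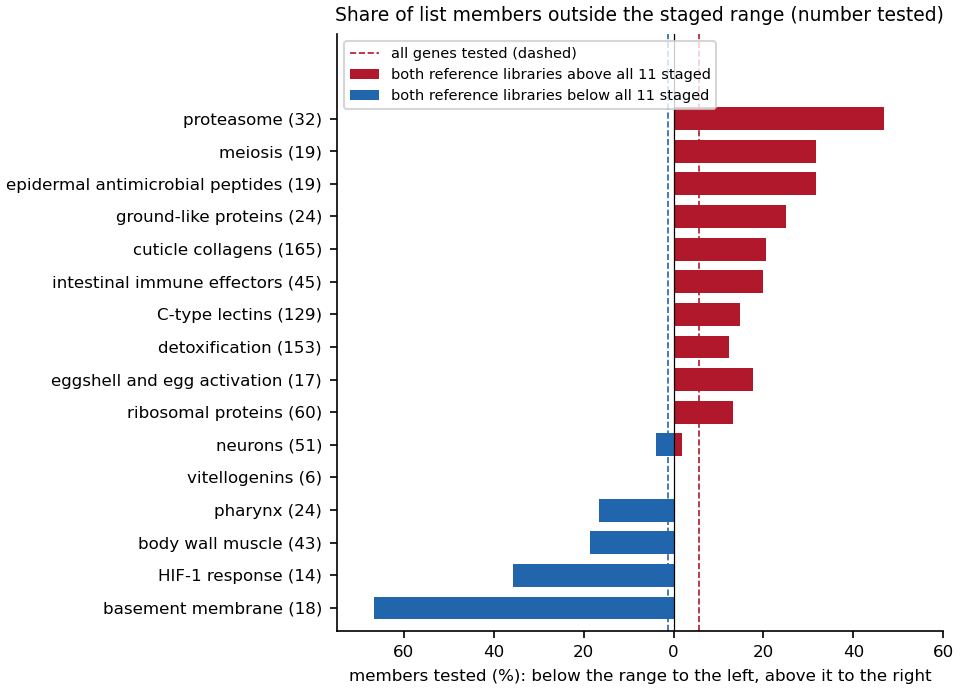
Percentage of the tested members of 16 gene lists (number in brackets) whose reference libraries were both above (red, to the right) or both below (blue, to the left) all 11 staged libraries. The dashed lines mark all genes tested, 5.7% above and 1.34% below. The proteasome list reaches 46.9% above and the basement membrane list 66.7% below.

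The C. briggsae libraries of the series, from strain AF16, comprise the same stages and share no library with C. elegans. The hours after feeding were 6 h (L1), 20 h (L2), 28 h (L3), 41 h (early L4), 53 h (late L4) and 63 h (young adults), so L1, L3, late L4 and young adults differed in age from those of C. elegans. There 206 of 12857 genes tested (1.6%) were above the range and 59 (0.459%) below, of which 75 (0.583%) and 0 (0%) by at least 2-fold, and limma called 34 above (0.264%) and 0 below (0%). Of the 145 C. elegans genes at least 2-fold above, 94 had a tested C. briggsae ortholog, and 35 of these (37.2%) were above the range there too, against 172 of 11983 (1.44%) over all genes tested in both. The shared genes were mostly of the cuticle: 27 of the 29 col-, cut-1 and grl- genes among the 94 were above in C. briggsae, col-95 and col-137 being the exceptions, and 8 of the other 65. This difference between the groups was noticed in the data and not tested.

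Several cuticle genes stood at higher levels in the C. briggsae reference than in that of C. elegans, a difference that was not tested. cut-1 had 122 and 103.6 RPKM in the C. briggsae reference against at most 4.27 RPKM in its stages (limma adjusted p = 0.013), and col-2 had 598 and 339 RPKM against at most 33.1 RPKM (limma adjusted p = 0.0388). grl-20 had 178 and 197 RPKM against at most 6.84 RPKM (limma adjusted p = 0.0133). All 6 ground-like genes above the range in C. elegans were above it in C. briggsae, as were 24 of the 32 collagens with a tested ortholog. mtl-2 was shared as well, with 572 and 196 RPKM against at most 19.8 RPKM (limma adjusted p = 0.0439).

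Several immune genes called in C. elegans were inside the range in C. briggsae, as were most genes above the C. elegans range. ilys-3 had no C. briggsae value. The C. briggsae ortholog of thn-2 had 37.5 and 35.2 RPKM in the reference against a highest staged value of 412 RPKM, that of cnc-6 2.04 and 1.83 RPKM against 202 RPKM, and that of ilys-2 1600 and 1027 RPKM against 1205 RPKM. hsp-12.6 had 2.17 and 4.09 RPKM against 3.41 RPKM. None of the 6 antimicrobial peptide genes above the range in C. elegans was above it in C. briggsae, and 1 of 7 intestinal immune effectors was, against 60 of 693 (8.66%) over all genes above the C. elegans range. Whether these small counts differ from that share was not tested. Over all 32 intestinal immune effectors tested in C. briggsae, 6 were above its range. Of the genes below the range in C. elegans, 206 had a tested ortholog and 2 (0.971%) were below in C. briggsae, against 0.384% of all genes tested in both. sqrd-1 there had 4.27 and 5.46 RPKM against a lowest value of 0.626 RPKM, and let-2 220 and 181 RPKM against 5.78 RPKM. None of the 14 HIF-1 response genes and none of the 17 basement membrane genes tested in C. briggsae was below its range, where few genes of any kind were.

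**Figure D5:**
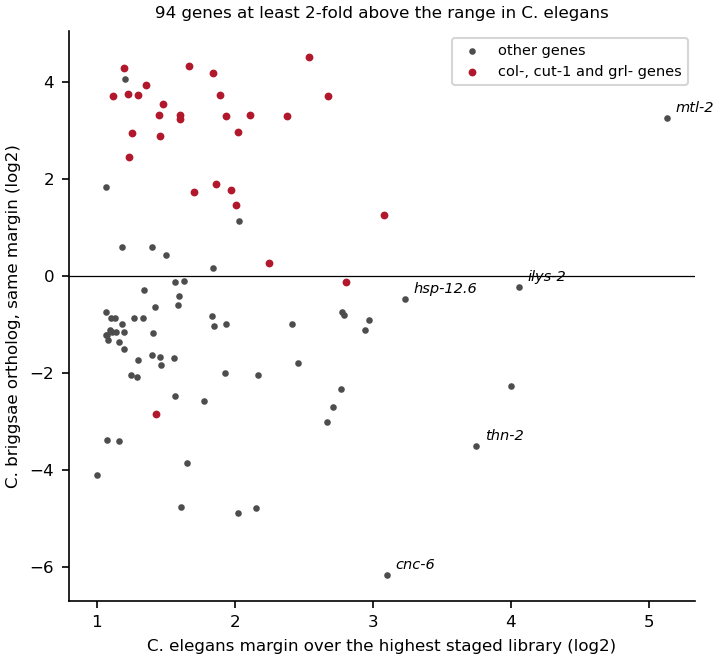
Log2 margin of the lower reference library over the highest staged library (RPKM + 1) in C. elegans (x axis) and C. briggsae (y axis) for the 94 genes at least 2-fold above the C. elegans range with a tested ortholog. Collagen, cut-1 and ground-like genes (red) lie above the zero line in 27 of 29 cases, and the other genes (grey) in 8 of 65, with mtl-2 above it and thn-2, ilys-2, cnc-6 and hsp-12.6 under it.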

How the data were processed

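The deposited table gives RPKM per gene and library, computed by the authors; the aligner was BWA (version 0.5.7, from the submitters' processing notes). No source used here states the genome build, the gene models, the ortholog assignment or the counting rule. Of 21774 gene IDs, 18746 were matched by sequence name to the Ensembl 115 annotation of WBcel235, the source of the symbols, coordinates and exon lengths printed. A gene was tested if 2 or more of the 13 libraries reached 1 RPKM. The test was limma 3.58.1 in R 4.3.3 on log2(RPKM + 1), a scale that understates the change of low genes, with trended empirical Bayes. Libraries of a culture were averaged first, and the reference was contrasted with each of the 7 stages. Residual degrees of freedom were 2 and prior degrees of freedom 3.59. Absolute read depth is unknown, so no counting intervals are given. Reference A1 and A2 share a sample and were averaged, so the reference added nothing to the spread behind the p-values. That spread came from culture A against B in embryos and L1, moderated over genes, and may be partly technical. The p-values hold no measure of spread for the reference or for the stages with 1 library. Per the labels, letters A and B mark time courses and so pair embryos with L1, although deviations of A from B did not correlate between these stages across genes (r = -0.009). Deviations of library A1 from A2 correlated with those of the reference at r = 0.168 in embryos and 0.18 in L1. The test for the C. elegans reference above every stage was run on simulated data of 17374 genes, with 0 false calls. At 2-fold above the highest stage 5 of 50 set genes were called, 47 of 50 at 4-fold, 50 of 50 at 8-fold and 50 of 50 at 16-fold. The simulation gave all genes 1 noise level and set only genes with a highest stage of at least 10 RPKM. For all other genes its reference was a mixture of the stages, which before noise cannot exceed the highest stage. The absence of false calls was thus largely built in. The called genes had a median highest staged value of 2.39 RPKM, so these counts do not give the recovery or error rate for low or variable genes. C. briggsae was fitted in the same way, without 125 IDs whose C. briggsae values repeat those of another ID. Alternatives changed the pseudocount, the filter, the scaling, the sample unit, the block and the libraries left out.

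Named above were up to 20 called genes with a symbol and at least 10 RPKM in the lower reference library, by margin, and 17 qualified. Named below were the 10 genes with the largest margins and at least 10 RPKM in every staged library, and from the 31 lists the members farthest out. Genes outside this rule and 8 further lists (ground-like, basement membrane, HIF-1 response, propionate, uterine lumen, C-type lectin, nuclear receptor and chemoreceptor genes) were chosen after their values were seen. Members and lists were chosen with earlier results of these data known. Of the lists not described in the results, 212 nuclear receptor genes had 1 above and 1 below the range, and 118 chemoreceptor genes 3 above and 1 below. Of 6 propionate genes 1 was above and 2 below.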

Additional observations from a re-analysis of the deposited data

How the results depend on the processing

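Of 31 genes called above every stage, 21 and 25 remained after quantile and median-ratio scaling. The count was 9 with a pseudocount of 0.5 and 97 with 5, 50 without a filter on low values, 48 with a filter at 5 RPKM, and 81 with 13 libraries as samples. With the culture as a replicate block it was 5, and with the library label as a block over 13 libraries 65. Leaving out 1 of the reference, embryo, L1 or L2 libraries gave 0 to 87, and the other 4 stages, with 1 library each, were kept throughout. Without embryo A1 and A2 it was 0, and without L1 A1 and A2 51. The count below every stage was 1 (sqrd-1) with the 5 RPKM filter, with 13 libraries as samples, with the library label as a block, and 0 to 1 when 1 library was left out. For genes above the range, median-ratio scaling gave 462, quantile normalization 698, and leaving out 1 library 990 to 2547, the last without reference A1. For genes below it the scalings gave 621 and 1592, and leaving out 1 library 231 to 1176. Genes at least 2-fold above numbered 91 with a pseudocount of 5, 97 with median-ratio scaling and 127 to 260 with 1 library left out. Those at least 2-fold below numbered 3 with a pseudocount of 5, 10 and 13 under the scalings, 10 without embryo A1 and A2, and 5 to 13 with 1 library left out. The cause of these shifts was not tested. The split of genes outside the range turned, from 81% above as deposited to 30.5% and 42.7% after quantile and median-ratio scaling, and the medians of the intestinal immune and dauer lists changed sign under both. The 2-fold counts and the L2 omission were chosen after seeing the data. In the simulated data, with 1 reference sample, genes set 2-fold above the highest stage were seldom called.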
